A study of Homo sapiens with 16 samples.

Results

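The targeting of the long non-coding RNA (lncRNA) lnrCXCR4 in CUTLL1 cells, by CRISPR guides and by antisense oligonucleotides (ASOs) together, which the labels call knockdown, is described from 6 of the 16 RNA-seq libraries of the study. They were chosen by their labels, with earlier results of these data known. The targeted libraries are 4: 2 from cells infected with lentivirus carrying CRISPR components against the lncRNA (guide 1 and guide 2) and 2 from cells grown with 1 uM of an ASO against it (ASO 1 and ASO 2). The controls are 2: 1 library with a non-targeting guide and 1 with a scrambled ASO. CUTLL1 is an established human T-cell acute lymphoblastic leukaemia (T-ALL) line, grown here in RPMI with serum. It is known for a chromosome rearrangement that joins NOTCH1 to a T-cell receptor gene and leaves NOTCH signalling switched on. All 6 libraries come from this line. The sources used here do not say whether a guide-treated population was a clone or a pool, what form the CRISPR components took or how long the cells were treated. The other 10 libraries are of the T-ALL lines KOPTK1 (guides and ASOs) and HPB-ALL (guides only) and serve here for comparison. Titles number the targeted libraries as guide or ASO 1 and 2, which is read here as different guides and oligonucleotides, while their descriptions number them as replicates; no label says that their cultures were separate, so the p-values here reflect the spread among these libraries alone, which may be technical.

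An lncRNA is a long transcript that codes for no protein; some of them act on nearby genes, others on genes elsewhere. CXCR4, for which this lncRNA is named, is the receptor of the chemokine CXCL12 and holds T-ALL cells in their bone marrow niche. A CRISPR guide acts on DNA, whereas an ASO pairs with the RNA, which the cell's own RNase H can then cut, so that the cell meets a different reagent in each case. In T-ALL, NOTCH1 drives MYC, and MYC in turn drives ribosome production and growth.

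The values are the deposited normalised read counts, in which each library's reads are divided by 1 factor, and the CUTLL1 libraries held 39670893 to 50516470 recovered reads. Of 57820 entries 0 carry the name of lnrCXCR4, so the level of the lncRNA was not analysed here, and the labels have no check from it. Values per library are given in the order guide 1, guide 2, ASO 1 and ASO 2 for targeted libraries, and guide control, ASO control for controls. Fold changes are log2 differences of targeted against control libraries, on log2(value + 1), from limma with guide or ASO as an additive term. A gene was called at an adjusted p (Benjamini-Hochberg) under 0.05 over the 13464 genes whose mean across the 6 libraries was at least 20. On this scale the fold of a low gene is understated, and that of a gene near 0 depends on the added 1. A gene low in 1 group could pass the filter on the mean through the other group alone. In bulk RNA, fewer cells of a type and less of an RNA per cell cannot be told apart.

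The 6 libraries fell into targeted and control sets. The distance between libraries was taken as a chi-square of the recovered reads averaged over genes with at least 50 of them, where 1 is counting noise alone. It was 167.8 to 190.3 for the 8 pairs of a targeted with a control library. The control pair, guide against ASO, stood at 2.29, the guide pair at 3.74 and the ASO pair at 2.34, and the 4 pairs of a guide with an ASO targeted library at 1.73 to 5.10. A targeted guide library was thus about as near to a targeted ASO library as to the other guide library. Pairs with ASO 1, the 1.73 and the ASO pair among them, use recovered reads that are not claimed as whole reads.

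Targeting was accompanied by a change in most of the tested genes. Of 13464 genes 10604 (78.8%) were called, 5267 higher (39.1%) and 5337 lower (39.6%), and 602 higher (4.47%) and 1435 lower (10.7%) passed 2-fold. The median over all tested genes was 0.0017. All 4 targeted libraries lay on the same side of their own control for 5205 of the higher and 5295 of the lower calls. Every list below is to be read against these shares, since any gene of the table was called that often.

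The largest rises were in genes low in the controls. DPYSL3, a cytoskeletal protein gene of growing neurons, read 92.1, 96.6, 122 and 82.7 in the targeted libraries, against 1.95 and 0 in the controls. Its fold change of 5.84 (SE 0.33, adjusted p 3.55e-11) rests on a control listed at 0. DHRS2, a short-chain dehydrogenase gene, read 205, 222, 207 and 229.7 in the targeted libraries, against 6.83 and 14.97 in the controls, a rise of 4.28 (SE 0.19, adjusted p 1.09e-12). UNC5B, a netrin receptor gene, rose by 4.09, with 811 ± 15.8 (SD, n = 4) in targeted libraries and 47.1 ± 9.98 (SD, n = 2) in controls. SESN3, a sestrin and FOXO target, rose by 4.11, the Ras-like gene RASD2 by 4.22 and the TGF-beta co-receptor gene TGFBR3 by 3.95. ZCCHC12 (4.62), OSBPL6 (4.35), AP000692.10 (3.94) and BAIAP3 (3.90) complete the first 10. For none of the 10 did targeted and control values overlap, which their choice made likely. They were picked among the 5205 higher calls with all 4 targeted libraries above their own control. SESN3 and UNC5B apart, their control means were 0.976 to 10.9. Those genes passed the filter on the mean only through the targeted libraries, so their rises partly reflect the filter.

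The largest falls were in genes that the targeted libraries hardly held. PPARG, a nuclear receptor gene best known from fat cells, read 5.53, 3.79, 1.998 and 4.08 in the targeted libraries, against 629 and 689 in the controls, a fold change of -7.14 (SE 0.30, adjusted p 5.84e-13). CD93, a C-type lectin receptor gene, read 7.37, 8.53, 8.99 and 5.11 in the targeted libraries, against 585 and 565 in the controls (-6.11). PLCH1, a phospholipase C gene, fell by 5.38, with 29.6 ± 1.92 (SD, n = 4) in targeted libraries and 1275 ± 58.0 (SD, n = 2) in controls. The chemokine receptor genes CCR2 (-5.87) and CCR8 (-5.55) were among the first 10. CCR8 was listed at 0 in 3 targeted libraries. GPA33 (-5.95), TUSC5 (-5.92), SLC22A16 (-5.51), ALDH3B2 (-5.40) and RP11-157N3.1 (-5.14) are the others. All 10 lay lower in every targeted library than in either control, which their choice made likely too. They were picked among the 5295 lower calls with all 4 targeted libraries below their own control.

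**Figure D1:**
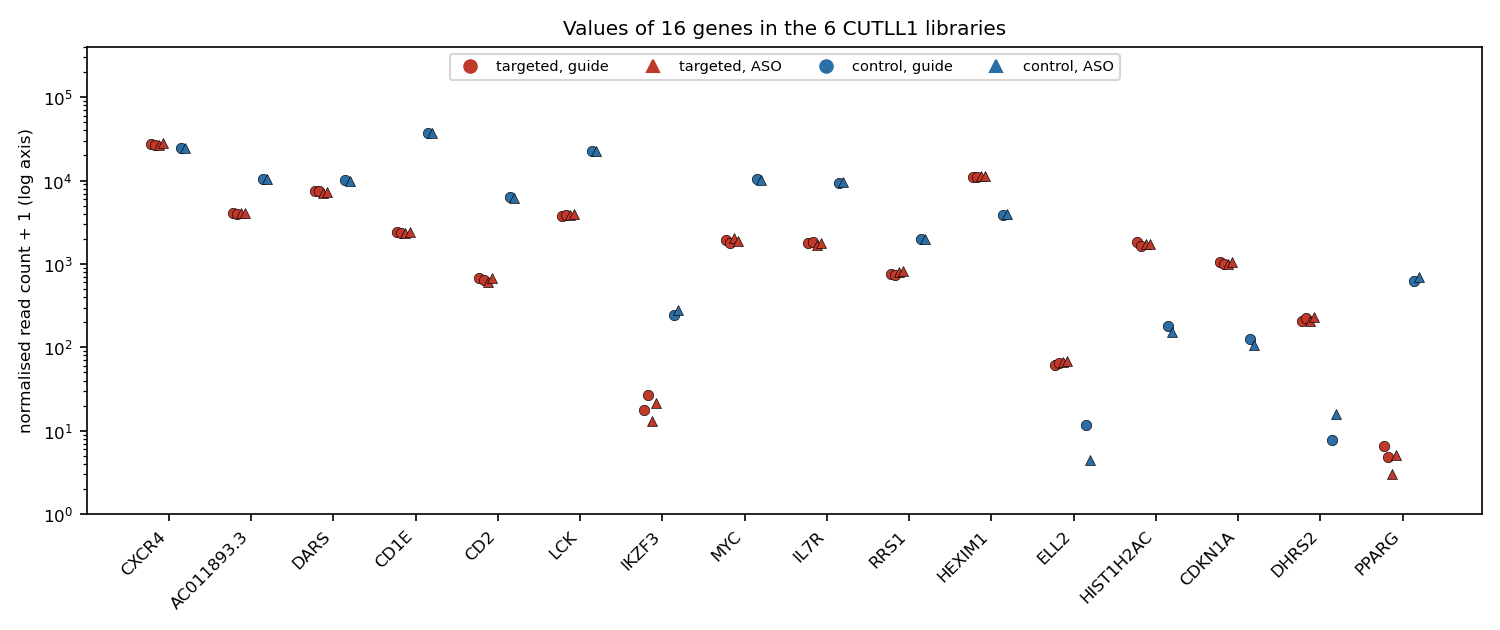
Deposited normalised read counts plus 1 (vertical log axis) of 16 genes in the 6 CUTLL1 libraries, targeted libraries in red to the left of controls in blue, guides as circles and ASOs as triangles. In each gene the 4 targeted libraries lie together and apart from both controls, from CXCR4, at 26597 to 27914 against 24422 and 24920, to PPARG, at 1.998 to 5.53 against 629 and 689. The 16 genes were picked. Of all 13464 tested genes, 5205 higher and 5295 lower calls had all 4 targeted libraries on the same side of their own control.

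At the locus for which the lncRNA is named, changes were of a size common among the tested genes, whose median absolute log2 fold change was 0.37. CXCR4 read 27137, 26597, 26995 and 27914 in the targeted libraries, against 24919.8 and 24422 in the controls. The groups did not overlap, in a table where 78.8% of the tested genes were called. All 4 targeted libraries lay on the same side of their own control for 5205 higher and 5295 lower calls. The share of genes without overlap was not counted. The rise was small, 0.14 (SE 0.025, adjusted p 7.02e-05). Its neighbourhood on chromosome 2 was taken as 17 genes, CXCR4 itself included. Of these, 12 could be tested, 6 rose, CXCR4 among them, 2 fell and 4 were not called (median 0.14). Over all tested genes 39.1% were called higher and 39.6% lower. DARS, which encodes aspartyl-tRNA synthetase, read 7450.2, 7401, 7179 and 7291 in the targeted libraries, against 10062 and 9856 in the controls (log2 fold change -0.44, SE 0.025, adjusted p 4.05e-11). SPOPL, a ubiquitin ligase adaptor gene, fell by 0.65. RAB3GAP1, a regulator of vesicle traffic, rose by 0.46, R3HDM1 by 0.38, the glycosyltransferase gene MGAT5 by 0.35, the replication helicase gene MCM6 by 0.25 and UBXN4 by 0.20. LCT, the lactase gene, was at -0.39 (adjusted p 0.0621), ZRANB3 at 0.14 (adjusted p 0.177), TMEM163 at 0.14 and CCNT2 at -0.012. ZRANB3 passed without the ASO control (0.35, adjusted p 0.00852), without ASO 1 (0.22, adjusted p 0.0322), with quantile scaling (0.39, adjusted p 0.0018), with edgeR (0.22, adjusted p 0.0454) and with guide 2 and ASO 2 alone (0.22, adjusted p 0.0308), and its sign turned without the guide control (-0.072). MAP3K19, ACMSD, THSD7B, HNMT and NXPH2 were too low to test.

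A non-coding entry named for a clone was the locus candidate with the largest change. AC011893.3 read 4068, 4015, 4105 and 4079.9 in the targeted libraries, against 10569 and 10433 in the controls, a fold change of -1.37 (SE 0.027, adjusted p 4.65e-17), with -1.39 from guides and -1.35 from ASOs. In a GENCODE gene table that is not of the files' build, an antisense gene of the same clone stands between LCT and MCM6. The 2 names differ in their last digit and were not matched by identifier, and although the library kit keeps the strand, its use in counting is not stated, so its reads cannot be told apart from those of an overlapping gene. The intergenic lncRNA AC068492.1, which stands next to CXCR4 in that table, was listed at 0 in all 6 CUTLL1 libraries. AC011893.3 was chosen after its values were seen.

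Genes that act with CXCR4 moved mostly down. Of 22 tested members of the CXCR4 signalling list 5 rose and 17 fell (median -0.24). RGS1, a brake on chemokine receptor signalling, read 32.2, 34.1, 39.96 and 35.7 in the targeted libraries, against 333 and 356 in the controls (log2 fold change -3.25, SE 0.14, adjusted p 1.31e-12), and RGS14 fell by 1.43. RGS2, of the same family, went the other way and read 269, 243, 261 and 286 in the targeted libraries, against 48.8 and 49.5 in the controls (log2 fold change 2.40, SE 0.11, adjusted p 1.18e-12). ARRB1, the arrestin gene that uncouples receptors, fell by 2.85, the phosphoinositide kinase subunit gene PIK3R5 by 1.46 and the exchange factor gene VAV1 by 0.74. GNAI2, the G protein subunit that couples CXCR4, rose by 0.47, with 33426 ± 715 (SD, n = 4) in targeted libraries and 24106 ± 189 (SD, n = 2) in controls. The ligand gene CXCL12 and the second receptor ACKR3 were too low to test.

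Other homing receptors fell further than CXCR4 rose. Of 7 tested genes of chemokine and sphingosine receptors and their regulator KLF2, 6 fell, all past 2-fold, and 0 rose (median -1.71). The list holds 12 genes. Among the 6, CCR8 passed the filter on the mean only through its controls. It read 68.3 and 67.9 there and 0 to 3.79 in the targeted libraries, so its fall partly reflects the filter. CCR7, which leads cells to lymph nodes, read 198, 201, 219 and 216 in the targeted libraries, against 551 and 548 in the controls (log2 fold change -1.396, SE 0.077, adjusted p 2.42e-11), and the sphingosine receptor genes S1PR1 and S1PR4 fell by 2.21 and 1.53. KLF2, which drives S1PR1, fell by 1.71. CCR9, a thymus and gut homing receptor gene, was the exception at 0.041 (adjusted p 0.139), and its sign turned with quantile scaling (-0.018). Of 14 adhesion genes 12 fell and 1, the integrin gene ITGB1, rose (0.58; list median -1.03). ITGA4, the integrin that holds lymphoblasts to VCAM1, read 2830.0, 2807, 2797 and 2757 in the targeted libraries, against 11442 and 11699.5 in the controls (log2 fold change -2.05, SE 0.029, adjusted p 7.59e-19). The selectin ligand gene SELPLG fell by 2.41, ICAM1 by 2.64 and ITGAL by 2.06.

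T-cell identity genes were lower in all 4 targeted libraries. Of 26 genes of the CD3 complex and its proximal signalling 25 fell, 21 of them past 2-fold, and 1, the kinase gene FYN, rose (0.70; list median -1.76). LCK, the kinase that starts T-cell receptor signalling, read 3738, 3867, 3881 and 3951 in the targeted libraries, against 22684 and 22772 in the controls (log2 fold change -2.56, SE 0.028, adjusted p 2.98e-20). GRAP2, an adaptor of that pathway, read 349, 351, 374 and 344 in the targeted libraries, against 7736 and 7559 in the controls (log2 fold change -4.43, SE 0.049, adjusted p 3.35e-20). CD2, an adhesion receptor gene, fell by 3.25, the inhibitory receptor gene CD5 by 2.69 and the adaptor gene SH2D1A by 2.08. The CD3 chains themselves fell less: CD3E by 1.16, CD247 by 1.04, CD3G by 0.55 and CD3D by 0.51. CD3D still read 24584 ± 590.4 (SD, n = 4) in targeted libraries and 34951 ± 1122 (SD, n = 2) in controls. Summed over the 10 genes taken to mark T cells, the level was 67414 to 70089 in targeted libraries, against 144918 to 147418 in controls, and 0 of the 10 were at 0, so the label of a T-cell line held in both groups.

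Genes that mark cortical thymocytes, the developing T cells that rearrange their receptor genes, fell in 15 of 15 tested cases (median -1.70). CD1E, a lipid-presenting molecule of that stage, read 2393, 2356, 2362 and 2390.2 in the targeted libraries, against 36712 and 37374 in the controls. Its fold change of -3.96 (SE 0.027, adjusted p 9.1e-23) had the smallest p of all genes. CD1A fell by 3.70 and CD1B by 2.87. RAG1, which encodes a subunit of the recombinase that cuts T-cell receptor genes, read 625, 660.3, 610.4 and 595 in the targeted libraries, against 4318 and 4456 in the controls (-2.81), and DNTT, which adds bases at the joins, fell by 2.91. The co-receptor genes fell unequally, CD8A by 1.96 and CD4 by 0.43.

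T-lineage transcription factors fell in 16 of 20 tested cases and rose in 3 (median -0.56). IKZF1 (Ikaros) read 7268, 7301, 7426 and 7189.9 in the targeted libraries, against 24797 and 25071 in the controls (log2 fold change -1.77, SE 0.025, adjusted p 7.59e-19), and its relative IKZF3 read 16.6, 25.6, 11.99 and 20.4 in the targeted libraries, against 243 and 278 in the controls (log2 fold change -3.78, SE 0.24, adjusted p 1.86e-10). IKZF3 passed the filter on the mean only through its controls, so its fall partly reflects the filter. BCL11B, which fixes T-cell fate, fell by 1.21, TOX by 1.13, MYB by 0.73, GATA3 by 0.64 and TCF7 by 0.24. The inhibitors of E proteins split: ID1 fell by 1.55 and ID3 by 1.21, while ID2 read 295, 296, 293 and 265 in the targeted libraries, against 96.6 and 93.3 in the controls, a rise of 1.58. LEF1 rose by 0.20. Of 18 oncogenic factors of T-ALL only 3 could be tested, and BCL11A (-1.53) and TLX1 (-1.33) fell.

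The NOTCH machinery was divided, its targets less so. Of 25 tested receptors, ligands and cofactors 12 rose and 12 fell (median -0.022). NOTCH1 fell by 0.27, with 21951 ± 351 (SD, n = 4) in targeted libraries and 26468 ± 401 (SD, n = 2) in controls, NOTCH3 fell by 0.33, and NOTCH2 rose by 0.42. The Fringe genes, whose enzymes add sugars to NOTCH receptors, parted: LFNG rose by 1.81 and MFNG fell by 2.02. The ligand gene JAG2 rose by 1.28 and the coactivator gene MAML1 by 0.40. Of 17 tested NOTCH1 targets 13 fell and 3 rose, CDKN2D, HEYL and TSPAN3 (median -0.75). IL7R, the interleukin-7 receptor gene, read 1775, 1859, 1687 and 1776 in the targeted libraries, against 9444 and 9686 in the controls (log2 fold change -2.43, SE 0.037, adjusted p 1.17e-18). DTX1 fell by 1.58, the feedback inhibitor gene NRARP by 2.02, HES1 by 1.19, the pre-T-cell receptor gene PTCRA by 1.44 and CR2 by 3.77.

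MYC read 1931, 1804, 2051 and 1898 in the targeted libraries, against 10466 and 10295 in the controls, a fall of 2.44 on the log2 scale (SE 0.040, adjusted p 3.17e-18). Of 12 tested genes of the MYC network 4 rose, 5, MYC included, fell and 3 were not called (median -0.011). Among them the MXD genes, whose proteins take MYC's place beside MAX and repress its targets, rose: MXD1 by 1.32, MXD3 by 0.90 and MXD4 by 0.82. All 30 ribosome biogenesis genes fell, by 0.15 (NOP56) to 1.36 (RRS1), with a median of -0.66. Together they took 0.579% ± 0.0076 of counts in targeted libraries (SD, n = 4) and 0.802% ± 0.0046 in controls (SD, n = 2). RRS1, a factor of the large ribosomal subunit, read 753, 742, 810.2 and 819 in the targeted libraries, against 2016 and 2007 in the controls (log2 fold change -1.36, SE 0.046, adjusted p 3.95e-14). NOP16 fell by 1.27, MYBBP1A, a regulator of ribosomal RNA transcription, by 1.24, the RNA polymerase I subunit gene POLR1B by 1.2, WDR43 by 1.01 and the helicase gene DDX21 by 0.85.

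MYC binds the E-box CACGTG, so the promoters of 3 genes of this list are shown, chosen because they hold it. NOP16 and POLR1B, which fell further than WDR43 and DDX21, have windows without it, and these are not shown. They are RefSeq windows (GRCh38.p14) of 300 bases, of which 250 lie before the gene's start; 24 of the 30 genes were matched. The motif was searched on both strands, where it reads the same, and capitals mark it in the lines that follow. It was found in 11 of the 24 matched genes (45.83%), against 8.775% of the 27305 genes with such a window. All 30 genes of the list fell, so this share describes the list and not the response. A match is a description of the letters and not evidence of binding.
MYBBP1A, chr17:4555335-4555634, minus strand: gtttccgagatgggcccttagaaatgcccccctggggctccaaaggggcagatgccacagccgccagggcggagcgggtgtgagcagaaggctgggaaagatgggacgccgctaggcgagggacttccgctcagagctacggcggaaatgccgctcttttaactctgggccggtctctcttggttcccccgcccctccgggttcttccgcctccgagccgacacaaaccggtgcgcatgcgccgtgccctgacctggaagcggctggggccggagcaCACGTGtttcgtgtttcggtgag
WDR43, chr2:28894417-28894716, plus strand: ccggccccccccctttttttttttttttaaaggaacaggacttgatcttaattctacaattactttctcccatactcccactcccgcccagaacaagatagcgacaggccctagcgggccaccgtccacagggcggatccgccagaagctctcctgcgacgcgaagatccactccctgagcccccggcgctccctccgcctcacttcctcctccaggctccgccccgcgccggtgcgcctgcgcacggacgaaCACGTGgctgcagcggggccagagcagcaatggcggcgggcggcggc
DDX21, chr10:68956397-68956696, plus strand: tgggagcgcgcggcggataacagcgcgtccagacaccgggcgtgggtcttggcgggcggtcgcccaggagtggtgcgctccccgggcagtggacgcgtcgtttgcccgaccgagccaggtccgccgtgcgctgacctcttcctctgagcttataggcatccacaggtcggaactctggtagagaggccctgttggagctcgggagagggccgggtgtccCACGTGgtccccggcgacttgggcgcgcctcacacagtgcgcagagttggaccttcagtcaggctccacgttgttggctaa

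Ribosomal protein genes, the products that need those factors, did not share the fall. Of 35 cytosolic ribosomal protein genes 17 rose, 5 fell and 13 were not called (median 0.057). RPL28 rose by 0.56, RPLP1 by 0.44, RPLP0 by 0.33 and RPS9 by 0.28. These genes have many near-identical copies in the genome, among which reads may be split.

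Genes of transcription elongation rose more often than they fell. P-TEFb, the kinase pair of CDK9 and cyclin T, releases paused RNA polymerase II; HEXIM1 holds it inactive within a small nuclear RNA particle, and BET proteins recruit it. Of 20 tested genes 15 rose and 3 fell (median 0.16). HEXIM1 read 11189, 11145, 11355 and 11306 in the targeted libraries, against 3897 and 3961 in the controls (log2 fold change 1.52, SE 0.025, adjusted p 4.14e-18). Its partner gene MEPCE rose by 0.77, CDK9 by 0.73 and the BET protein gene BRD2 by 0.83. HEXIM2 went the other way and fell by 1.95. ELL2, an elongation factor gene, read 59.9, 64.4, 65.9 and 68.4 in the targeted libraries, against 10.7 and 3.45 in the controls (log2 fold change 3.18, SE 0.29, adjusted p 2.14e-08).

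Replication-dependent histone genes rose in 19 of 22 tested cases and fell in 0 (median 1.60). HIST1H2AC read 1859, 1632, 1742 and 1722 in the targeted libraries, against 179 and 151 in the controls (log2 fold change 3.40, SE 0.063, adjusted p 1.95e-17). HIST1H2BK rose by 2.93, HIST2H2BE by 2.50, HIST1H2AG by 2.31 and the linker histone gene HIST1H1C by 2.08. They took 0.0174% ± 0.00085 of counts in targeted libraries (SD, n = 4) and 0.00427% ± 0.00032 in controls (SD, n = 2). Most histone mRNAs of this kind end without a poly(A) tail, and the sources used here do not say which RNA was selected for sequencing. Members of the family are alike in sequence and may share reads.

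Promoters of H2A and H2B genes are known for the octamer ATTTGCAT, bound by OCT1, and the RefSeq windows of 3 of the risen genes are shown for it. Capitals mark the octamer, which in HIST1H2AC stands on the other strand as ATGCAAAT. It was found in 8 of the 21 matched members of the list (38.1%), against 2.19% of the 27305 genes, in windows of the same length. The list holds H2A and H2B genes by choice, so this share describes the family and not the response.
HIST1H2AC (H2AC6), chr6:26123922-26124221, plus strand: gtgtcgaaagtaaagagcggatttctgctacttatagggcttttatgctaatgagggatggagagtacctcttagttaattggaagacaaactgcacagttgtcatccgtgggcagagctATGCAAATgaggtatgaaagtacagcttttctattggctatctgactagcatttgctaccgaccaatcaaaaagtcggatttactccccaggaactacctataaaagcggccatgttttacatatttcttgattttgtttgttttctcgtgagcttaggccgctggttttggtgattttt
HIST1H2BK (H2BC12), chr6:27146809-27147108, minus strand: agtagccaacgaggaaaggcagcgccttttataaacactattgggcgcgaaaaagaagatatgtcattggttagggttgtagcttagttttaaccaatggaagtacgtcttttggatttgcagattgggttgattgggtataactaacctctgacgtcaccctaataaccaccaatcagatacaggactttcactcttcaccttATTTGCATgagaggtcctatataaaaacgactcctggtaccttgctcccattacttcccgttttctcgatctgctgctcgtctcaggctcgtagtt
HIST2H2BE (H2BC21), chr1:149886633-149886932, minus strand: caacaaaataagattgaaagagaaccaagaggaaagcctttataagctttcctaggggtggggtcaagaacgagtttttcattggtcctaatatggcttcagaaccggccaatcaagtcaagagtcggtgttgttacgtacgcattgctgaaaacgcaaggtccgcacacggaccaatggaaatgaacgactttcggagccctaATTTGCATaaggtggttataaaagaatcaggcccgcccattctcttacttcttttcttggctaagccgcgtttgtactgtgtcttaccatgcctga

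Cell cycle genes did not move as 1 block. Of 30 mitosis genes 25 rose and 2 fell (median 0.27), with the cytokinesis gene ANLN at 0.74, the spindle genes DLGAP5 at 0.60 and NUSAP1 at 0.46, and their transcription factor FOXM1 at -0.63. Of 31 S-phase genes 15 rose and 11 fell (median 0.023). RRM2, the ribonucleotide reductase subunit, read 60319, 59119, 59706 and 59654 in the targeted libraries, against 34496 and 34804 in the controls (log2 fold change 0.78, SE 0.022, adjusted p 3.3e-15), thymidine kinase TK1 rose by 0.69 and the polymerase gene POLE by 0.55, while POLE2, a subunit of the same polymerase, fell by 0.83. Of 15 genes of G1 control 7 rose and 7 fell. The inhibitors CDKN2C and CDKN2D rose by 0.76 and 0.85 and CDK2 by 0.48, while CDK6 fell by 0.71 and CCND3, the D cyclin of T-ALL, by 0.41. CCND1 was low throughout and fell by 3.62.

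CDKN1A, which encodes a CDK inhibitor of the response to DNA damage, read 1057, 985, 1008 and 1047 in the targeted libraries, against 125 and 105 in the controls (log2 fold change 3.15, SE 0.070, adjusted p 1.53e-16). Of 14 BCL2 family genes 6 rose and 6 fell. Among the protective members BCL2 fell by 0.68 and BCL2L1 by 0.60, and MCL1 rose by 0.71. Among the members that promote death BMF rose by 1.37, BBC3 by 1.29 and BCL2L11 by 0.59.

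Lentivirus and ASO bring foreign nucleic acid into a cell, which sensors and interferon genes can answer. Of 15 tested sensors and their signal carriers 2 rose and 8 fell (median -0.34). OAS3, an RNA sensor gene, read 82.0, 79.6, 94.9 and 88.8 in the targeted libraries, against 609 and 617 in the controls (log2 fold change -2.82, SE 0.10, adjusted p 7.32e-14), IFI16 fell by 0.68 and TMEM173 (STING) by 0.97. IRF7, the factor that amplifies interferon, read 1109.7, 1113, 1182 and 1173 in the targeted libraries, against 158 and 170.4 in the controls (log2 fold change 2.79, SE 0.055, adjusted p 3.52e-17). Of 25 interferon response genes 7 rose and 16 fell (median -0.78). XAF1 read 72.8, 54.9, 59.9 and 63.3 in the targeted libraries, against 625 and 626 in the controls (-3.31). PARP14 fell by 2.56 and the neighbouring pair PARP9 and DTX3L by 1.52 and 1.91. IFIT1, a classical induced gene, was low and rose by 2.18, and the signal carrier STAT2 rose by 0.88. Of 17 genes of RNase H and of the repair of broken DNA 6 rose and 9 fell. RNASEH2B fell by 1.29, RNASEH2C rose by 0.64, and H2AFX and BRCA2 rose by 0.92 and 0.63. By method, 8 of the 15 sensors fell and 2 rose with guides, and 6 fell and 1 rose with ASOs. None of the 15 was called in the test of the difference, which called 0 of all genes. Of the 25 interferon genes 15 fell with guides and 15 with ASOs, at shares of all genes of 36.1% and 36.2%, and 8 of the 17 RNase H and repair genes fell with each.

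Cholesterol synthesis genes rose in 22 of 24 tested cases (median 0.55). INSIG1, a sterol sensor gene, read 25435, 24641, 25702 and 24876 in the targeted libraries, against 9768 and 10296 in the controls (log2 fold change 1.33, SE 0.026, adjusted p 3.41e-17). SQLE, a rate-controlling enzyme, rose by 1.05 and TM7SF2 by 1.71. The exceptions were FDPS (-0.27) and PMVK (-0.34). The sterol element TCACNCCAC stood in 1 of 19 matched promoters (5.263%), against 1.388% of all, so no promoter is shown.

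Genes of growth arrest and FOXO control rose in 14 of 18 tested cases and fell in 4 (median 0.87). FOXO1 read 133, 122, 128 and 120.5 in the targeted libraries, against 31.2 and 33.4 in the controls (1.93). The antiproliferative genes BTG2 and TOB1 rose by 1.24 and 0.91 and KLF6 by 0.89, while PIK3IP1, also a FOXO target, fell by 1.81. Of 26 genes of glycolysis and hypoxia 13 rose and 11 fell, with BNIP3L at 0.97, the demethylase gene KDM3A at 0.79, PKM at 0.50 and hexokinase HK2 at -0.60. Immediate early and NF-kB genes were even, 11 up and 11 down of 23, with JUN at 0.80, JUND at 0.84, NFKB1 at -1.14 and the phosphatase gene DUSP2 at -1.22.

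Stress lists were mixed. Of 22 genes of the ATF4 response 9 rose and 10 fell. ATF3 rose by 1.63 and the sestrin gene SESN2 by 1.31, TRIB3 fell by 1.79, and ATF4 itself and the amino acid transporter gene SLC7A5 fell by 0.20 and 0.36. Of 19 chaperones and quality control genes of the endoplasmic reticulum 5 rose and 10 fell (median -0.086). HSPA5 (BiP) read 6614, 6763, 6759 and 7137 in the targeted libraries, against 15005 and 14730.4 in the controls (log2 fold change -1.12, SE 0.030, adjusted p 1.61e-15), XBP1 fell by 1.66, PDIA6 by 0.88 and CALR by 0.80. Of 15 heat shock genes 7 rose and 7 fell, with HSPA1B at 0.94, HSPB1 at -0.88, the mitochondrial chaperone gene HSPE1 at -0.56 and the regulator HSF1 at -0.42. Of 12 tested genes of antigen presentation 6 rose and 4 fell. HLA-B rose by 0.63, HLA-C by 0.48 and HLA-E by 0.47, and the immunoproteasome gene PSMB8 fell by 1.65.

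All 15 mitochondrially encoded genes rose (median 0.23), and they took 2.51% ± 0.034 of counts in targeted libraries (SD, n = 4) and 2.15% ± 0.037 in controls (SD, n = 2). The ribosomal RNA gene MT-RNR2 rose by 0.60, MT-CYB by 0.30, MT-ND5 by 0.30 and MT-CO1 by 0.23. MT-ND2 moved least (0.078, adjusted p 0.0176), and its call was lost without the ASO control (0.063, adjusted p 0.153), without ASO 2 (0.051, adjusted p 0.0591), with quantile scaling (0.011, adjusted p 0.686) and with the replicate number as a block (0.051, adjusted p 0.131). The part of this share, or of RNA selection and quality, in the gene lists above was not tested.

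Most markers of other cell types stayed near 0, and of the 7 that could be tested 6 fell; their part in the results above was not tested. Of 10 B-cell markers 3 were at 0 in all 6 libraries, 8 stayed under 20, and IGLL1 (-2.998) and CD79A (-0.72) fell (summed 267 to 293 in targeted libraries, against 894 to 907 in controls). Of 10 myeloid markers 9 stayed under 20, 5 of them at 0, and AIF1 fell by 0.67 (summed 7062 to 7575 in targeted libraries, against 11409 to 11762 in controls). Of 10 cytotoxic cell markers 7 stayed under 20, 2 of them at 0, and NKG7 (-1.71), CST7 (-2.09) and PRF1 (-2.12) fell (summed 752 to 879 in targeted libraries, against 2957 to 3052 in controls). All 10 erythroid and megakaryocyte markers stayed under 20, 5 of them at 0 (summed 18.0 to 29.6 in targeted libraries, against 22.4 to 25.3 in controls). Of 10 epithelial and fibroblast markers 9 stayed under 20, 5 of them at 0, and COL1A1 rose by 1.13 (summed 46.0 to 59.2 in targeted libraries, against 43.9 to 48.4 in controls).

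**Figure D2:**
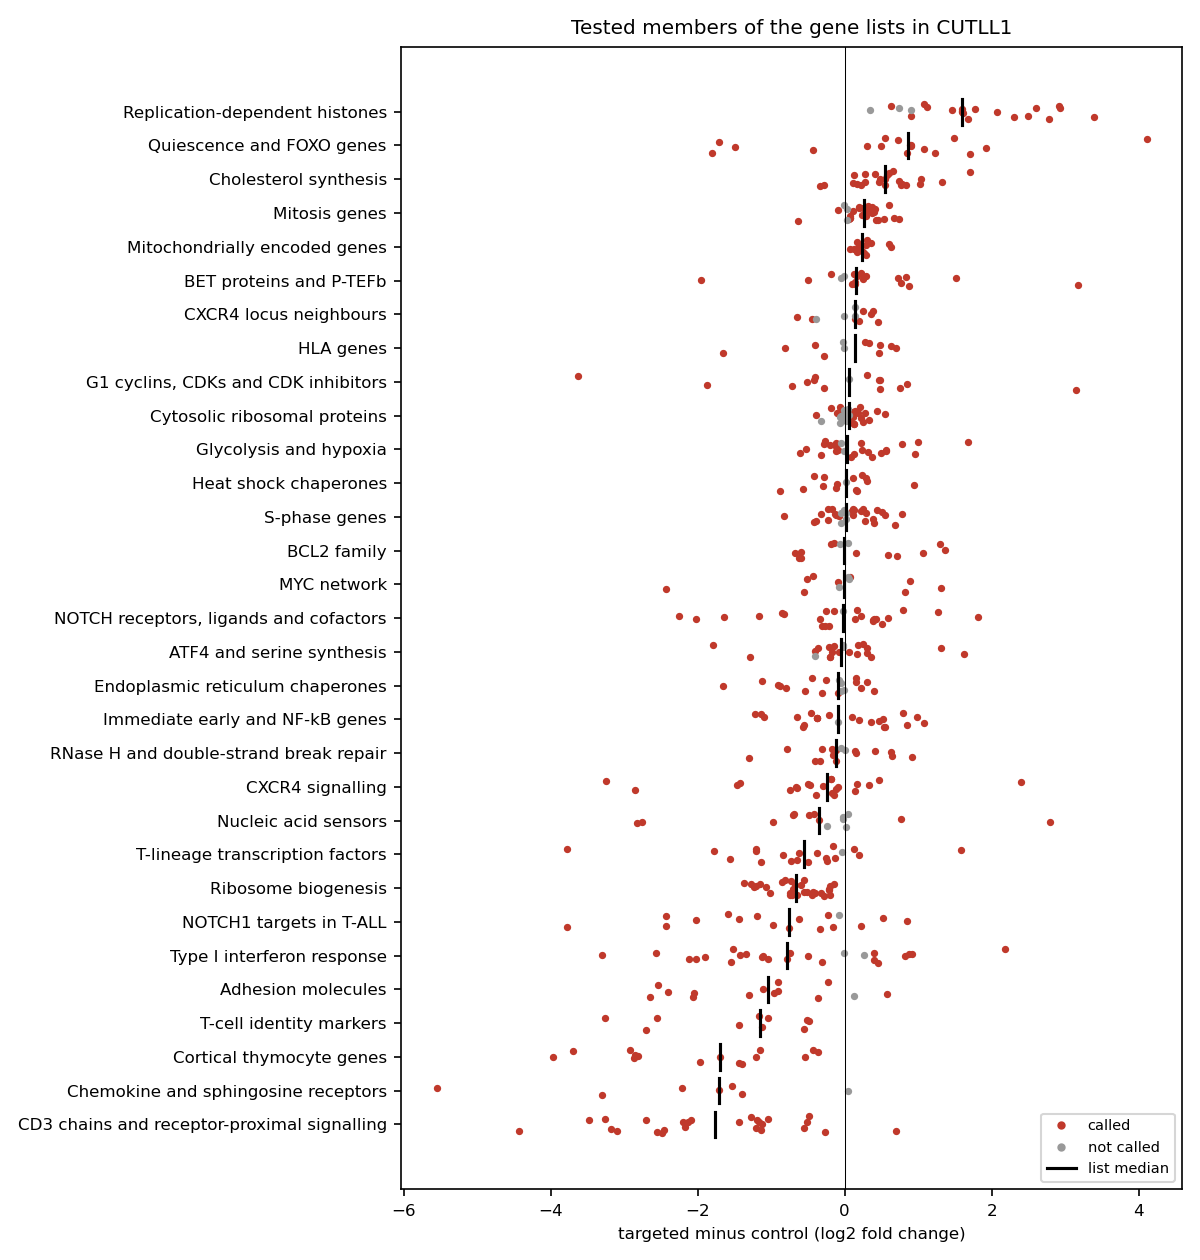
Log2 fold change of targeted against control CUTLL1 libraries (horizontal axis) for every tested member of 31 gene lists (1 line each), with called genes in red, other genes in grey and the list median as a black bar. Histone genes have the highest median (1.60) and the CD3 list the lowest (-1.76), while several lists centre near 0 with members far to both sides.

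The guides and the ASOs can be set against their own controls, which they do not share. With guides alone 9646 of 13464 genes (71.6%) were called, 4781 higher (35.5%) and 4865 lower (36.1%), and with ASOs alone 9663 (71.8%), 4789 higher (35.6%) and 4874 lower (36.2%). Called with both in the same direction were 4287 higher and 4417 lower, and 2 genes were called in opposite directions. Across all tested genes the guide and ASO fold changes had a Pearson r of 0.962 and a Spearman rho of 0.940, a description across genes, which are not independent. In the CD3 list 24 of 26 fell with guides and 25 of 26 with ASOs, and in the cortical thymocyte list 15 of 15 fell with each.

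A test of the difference between the guide effect and the ASO effect called 0 of 13464 genes (0%) by limma, with 961 at an unadjusted p under 0.05; edgeR, which left out ASO 1, called 80 higher and 6 lower, and DESeq2 called 0. Leaving out any 1 targeted library gave 8 to 124 higher and 3 to 46 lower calls, the most without guide 1. The median size of the difference was 0.080. The median half-width of its 95% interval, not adjusted for the number of genes, was 0.187. A missing call leaves room for differences of that size and for larger ones, since 119 genes differed by more than 1 without a limma call. The half-width was under 0.5 for 10497 genes. The smallest adjusted p belonged to KAZALD1, at -0.014 with guides and -1.12 with ASOs (difference 1.11, SE 0.18, adjusted p 0.0757), and to RP5-940J5.9, at -0.33 with guides and 1.52 with ASOs (difference -1.86, SE 0.30, adjusted p 0.0757). KAZALD1 read 323, 391, 290 and 248 in the targeted libraries, against 359 and 586 in the controls, so the controls lay further apart than any of the targeted libraries. TBL1XR1, a cofactor of nuclear receptor repression, came next, at -0.49 with guides and -0.83 with ASOs (difference 0.34, SE 0.061, adjusted p 0.156). For SMPD1, the acid sphingomyelinase gene, both effects were upward, at 1.46 with guides and 2.13 with ASOs (difference -0.67, SE 0.15, adjusted p 0.315). The remaining genes with the smallest p were UBXN11, C18orf54, LINC00643 and SCAI, with a difference of 0.61, 0.38, 1.78 and 0.38, and RP11-138I1.4, FZD8, RP11-269F19.2 and MT-ATP8, with -2.28, -2.48, -1.78 and -0.20. With 1 control library on each side, a difference between the controls enters every such value.

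**Figure D3:**
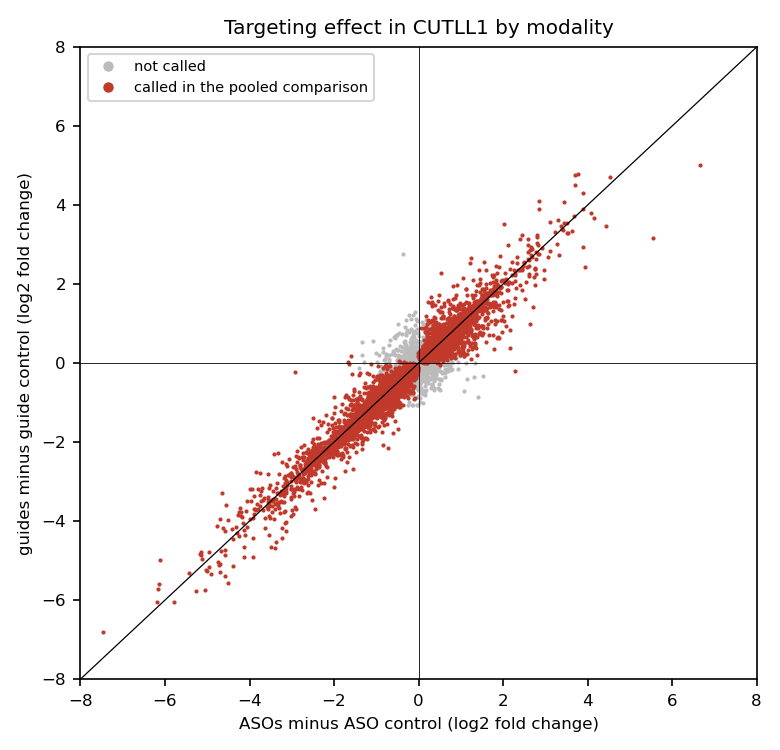
Log2 fold change of CUTLL1 guides against the guide control (vertical axis) and of ASOs against the ASO control (horizontal axis) for 13464 genes, with genes called in the pooled comparison in red and the line of equality in black. The points follow the line (Pearson r 0.962), and 119 genes lie more than 1 away from it on the log2 scale.

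Compared with KOPTK1, in which the same targeting was done with guides and ASOs, the CUTLL1 effect differed in 3670 of 13703 tested genes (26.8%), 1822 higher (13.3%) and 1848 lower (13.5%). Without the CUTLL1 ASO control the counts were 1182 and 1194, without the CUTLL1 guide control 1249 and 1230, and with TMM scaling 2327 and 1221. Of the 3670 genes 2785 had the same sign in both lines and differed in size, 885 had opposite signs, and 67 of these passed 1.5-fold both ways; 334 (2.44%) were higher and 302 (2.2%) lower by more than 2-fold. MYC was at -2.44 in CUTLL1 and -1.55 in KOPTK1 (difference -0.88, SE 0.064, adjusted p 9.82e-07). CXCR4 was at 0.14 in CUTLL1 and 0.46 in KOPTK1 (difference -0.33, SE 0.046, adjusted p 0.000246). In the CD3 list, 2 of 26 tested members were called higher and 14 lower in the difference (median -0.24). CD247, the zeta chain of the CD3 complex, was at -1.04 in CUTLL1 and 0.41 in KOPTK1 (difference -1.45, SE 0.051, adjusted p 1.44e-09); it read 15217, 14585, 15919 and 15153 in the targeted KOPTK1 libraries, against 11479 and 11345 in the KOPTK1 controls. CD3E went the other way in the difference, at -1.16 in CUTLL1 and -1.63 in KOPTK1 (difference 0.47, SE 0.051, adjusted p 3.24e-05). In the NOTCH1 target list, 2 of 17 tested members were called higher and 10 lower in the difference (median -0.32), and in the histone list, 8 of 22 tested members were called higher and 0 lower in the difference (median 0.81). HIST1H2BK was at 2.93 in CUTLL1 and 0.44 in KOPTK1 (difference 2.49, SE 0.083, adjusted p 9.88e-10). In the cortical thymocyte list the balance was the other way, since 8 of 15 tested members were called higher and 3 lower in the difference (median 0.43). In the interferon list 4 of 27 tested members were called higher and 13 lower in the difference (median -0.23), and in the ribosome biogenesis list 3 of 30 tested members were called higher and 10 lower in the difference (median -0.094). Over all genes tested the median difference was 0.00049.

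Of the 6 genes with the smallest p in each direction (adjusted p of 1.37e-09 or less), most had fallen in 1 line and little or not in the other. The MAP kinase phosphatase gene DUSP6 was at -0.57 in CUTLL1 and -4.59 in KOPTK1, where it read 87.4, 67.9, 76.2 and 84.4 in the targeted KOPTK1 libraries, against 1897 and 1934 in the KOPTK1 controls. CEP128, a centriole gene, was at 0.013 in CUTLL1 and -4.14 in KOPTK1. SEC31B was at -0.39 in CUTLL1 and -2.89 in KOPTK1, and the neighbouring pair TMC8 and TMC6 at -1.44 in CUTLL1 and -3.43 in KOPTK1 and at -0.42 in CUTLL1 and -2.39 in KOPTK1, so all 3 were further down in KOPTK1. In the other direction MAL, a lipid raft protein gene of T cells, was at -1.89 in CUTLL1 and 0.25 in KOPTK1. HDHD1 was at -1.61 in CUTLL1 and 0.011 in KOPTK1, GBE1, the glycogen branching enzyme gene, at -0.96 in CUTLL1 and 0.59 in KOPTK1 and MYO7B at -3.15 in CUTLL1 and -1.55 in KOPTK1.

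CCR9, uncalled in CUTLL1, was at 0.041 in CUTLL1 and 1.42 in KOPTK1 (difference -1.38, SE 0.033, adjusted p 2.09e-10), and read 17511, 17439, 17261 and 17393 in the targeted KOPTK1 libraries, against 6605 and 6424 in the KOPTK1 controls. The locus entry AC011893.3 was at -1.37 in CUTLL1 and -0.17 in KOPTK1 (difference -1.20, SE 0.037, adjusted p 7.15e-10), and read 7179, 7139, 7102 and 6865 in the targeted KOPTK1 libraries, against 8003 and 7928 in the KOPTK1 controls. In KOPTK1, too, its groups did not overlap, but the gap was small. In HPB-ALL this entry fell about as in CUTLL1, so the fall was not particular to CUTLL1. With guides it was at -1.387 in CUTLL1 and -1.355 in HPB-ALL (difference -0.032, SE 0.048, adjusted p 0.646). It read 1990 and 2035 in the targeted HPB-ALL libraries, against 5096 and 5201 in the HPB-ALL controls. ID1 was at -1.55 in CUTLL1 and 0.89 in KOPTK1 (difference -2.44, SE 0.24, adjusted p 1.4e-05). ELL2 was at 3.18 in CUTLL1 and -0.99 in KOPTK1 (difference 4.17, SE 0.57, adjusted p 0.000199); KOPTK1 held 0 to 1.96 in every library, so its fold there depends on the added 1.

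Compared with HPB-ALL, with guides only, the CUTLL1 guide effect differed in 4980 of 14005 tested genes (35.6%), 2631 higher (18.8%) and 2349 lower (16.8%). Without CUTLL1 guide 1 the lower calls were 1547, and without guide 2 they were 1475. Of the 4980 genes 3498 had the same sign and 1478 the opposite, 145 of them past 1.5-fold both ways; 631 (4.51%) were higher and 447 (3.19%) lower by more than 2-fold. The amino acid transporter gene SLC38A1 had the smallest p, at -0.72 in CUTLL1 and -6.44 in HPB-ALL (difference 5.72, SE 0.072, adjusted p 3.34e-08), and read 56.6 and 52.3 in the targeted HPB-ALL libraries, against 4804 and 4818 in the HPB-ALL controls. TOX2, a T-lineage factor, was at 0.12 in CUTLL1 and -4.81 in HPB-ALL (difference 4.93, SE 0.091, adjusted p 3.14e-07), and in its list 15 of 21 tested members were called higher and 1 lower in the difference (median 0.40). SOGA2 was at 2.46 in CUTLL1 and -1.44 in HPB-ALL, ENC1 at 2.12 in CUTLL1 and -0.32 in HPB-ALL, PLEKHG1 at -0.90 in CUTLL1 and -3.14 in HPB-ALL and DNMBP at 0.94 in CUTLL1 and -0.78 in HPB-ALL. In the other direction RP11-1055B8.7 was at -5.12 in CUTLL1 and -0.71 in HPB-ALL, and GPR157 at -2.25 in CUTLL1 and 0.062 in HPB-ALL. CR2, a complement receptor gene and NOTCH1 target, was at -3.91 in CUTLL1 and -1.61 in HPB-ALL, the costimulatory receptor gene CD28 at -3.23 in CUTLL1 and -1.79 in HPB-ALL, the kinase gene FGR at -5.08 in CUTLL1 and -3.03 in HPB-ALL and PKP1 at -4.38 in CUTLL1 and -1.54 in HPB-ALL. The adjusted p of these 12 genes was 1.03e-05 or less.

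Among the lists, the ATF4 response differed between CUTLL1 and HPB-ALL in 1 direction. In the difference 17 of 22 tested members were called higher and 0 lower (median 0.61), against 18.8% and 16.8% of all genes. With guides in CUTLL1 alone, 7 of 22 tested members rose and 9 fell (median -0.041), so the list did not rise there. TRIB3, a target of ATF4, was at -1.78 in CUTLL1 and -2.71 in HPB-ALL (difference 0.93, SE 0.078, adjusted p 0.000158). In the ribosome biogenesis list 13 of 30 tested members were called higher and 1 lower in the difference (median 0.13), and in the cholesterol list 13 of 24 tested members were called higher and 1 lower in the difference (median 0.14). In the mitochondrial list 0 of 15 tested members were called higher and 11 lower in the difference (median -0.20). Over all genes tested the median difference was 0.0049. CD247 was at -1.09 in CUTLL1 and -0.55 in HPB-ALL (difference -0.53, SE 0.048, adjusted p 0.0002). The difference from KOPTK1 was fitted on 12 libraries and that from HPB-ALL on 7, and both use the CUTLL1 guide libraries, so they are not independent of each other.

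**Figure D4:**
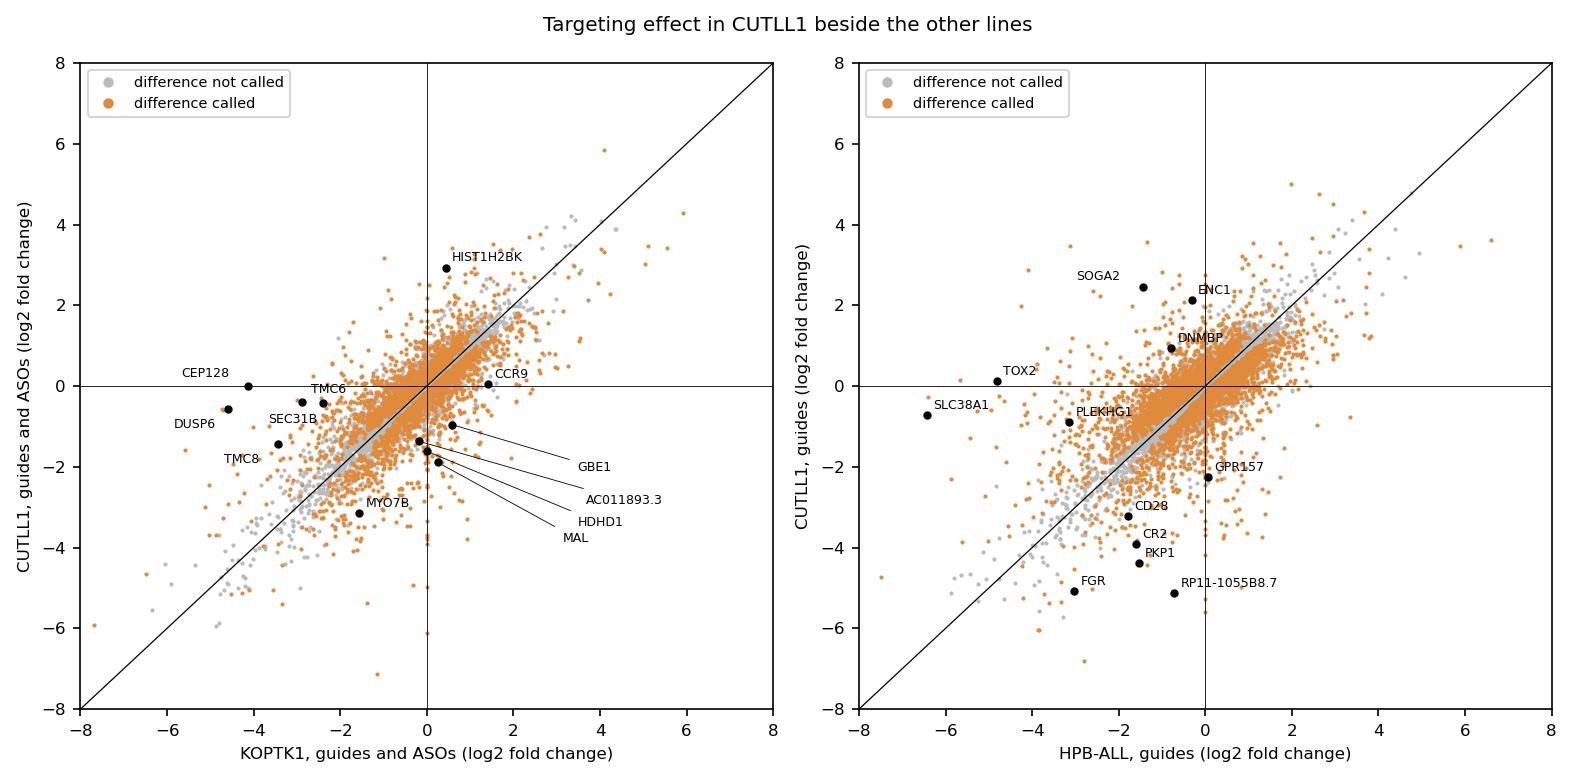
Log2 fold change of targeting in CUTLL1 (vertical axes) beside that in KOPTK1 (left panel, guides and ASOs) and in HPB-ALL (right panel, guides), with genes whose difference between lines was called in orange, other genes in grey and the genes with the smallest p in each direction named. Called differences lie away from the line of equality, with DUSP6, CEP128 and SLC38A1 far to its left and CCR9 and RP11-1055B8.7 below it.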

How the data were processed

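RNA-seq of 16 libraries was deposited by the authors as normalised read counts per gene, a signal in which each library's reads are divided by 1 factor. Per the submitters' processing notes STAR 1.4.2, DESeq2 and hg19 were used, with their roles, the counter, the annotation and any use of strand not given in the sources used here. Every deposited value was a whole multiple of its column's smallest value above 0 (100%, tolerance 1e-06), which gave back the reads. For ASO 1 the step lies too near 1 to be claimed, and count tests left it out, while the distances between libraries used it. Groups were taken from the labels. Values were tested as log2(value + 1) with limma 3.58.1 (R 4.3.3; intensity trend, genes with a mean of 20 or more, Benjamini-Hochberg threshold 0.05); the CUTLL1 fit had 3 residual degrees of freedom and a prior of 13.3. Guide and ASO effects came from 4 group means and differences between lines from joint fits; a lone control is assumed to vary like the targeted libraries. The script was tested on simulated data. Alternatives were a pseudocount of 5, no filter, a mean minimum of 100, median-of-ratios, TMM and quantile scaling, robust moderation, edgeR 4.0.16, DESeq2 1.42.0, leaving out each library, a replicate block, guide 1 with ASO 1 or guide 2 with ASO 2 alone, and no term for guide or ASO. Named genes are the neighbours of CXCR4, the 10 largest rises and falls with all 4 targeted libraries on 1 side, up to 4 called members with the smallest p of each of 38 lists, further members by role, and the 6 smallest p in each direction of each difference. Some of these genes and 1 list are not reported here. The libraries, lists and tests were chosen with earlier results of these data known. Promoter windows are RefSeq's on GRCh38.p14 and were matched by symbol or synonym.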

Additional observations from a re-analysis of the deposited data

Results flagged for a closer look

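A targeted library stood apart from the other 3 for 8 of the 215 genes examined, by the gap to its nearest neighbour relative to the range; chance gives about 1 in 20. Guide 1 read 506.5 for SESN3, above the next value of 427. ASO 1 read 1.998 for TUSC5 and 24646 for NUSAP1, the first above and the second below the other libraries. Guide 2 stood apart for CCR8 (3.79, with the others at 0), TLX1 (36.9), MDM2 (4279) and DUSP2 (1288), and ASO 2 for ID2 (265). In each of the 8 genes these targeted values lay on the same side of both controls as the other targeted libraries.

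The effect of targeting on the log2 scale differed between CUTLL1 and KOPTK1, by the test of the difference, for the genes named in that comparison, which are given here; other genes of the report also passed it, among the 3670 called. It was higher in CUTLL1 by 2.50 for SEC31B, 1.99 for TMC8, 4.02 for DUSP6, 4.15 for CEP128, 2.49 for HIST1H2BK, 1.97 for TMC6, 0.47 for CD3E and 4.17 for ELL2. The difference was -1.38 for CCR9, -2.14 for MAL, -1.20 for AC011893.3, -1.63 for HDHD1, -1.55 for GBE1, -1.60 for MYO7B, -0.33 for CXCR4, -1.45 for CD247, -2.44 for ID1 and -0.88 for MYC.

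Between CUTLL1 and HPB-ALL the guide effect differed by the same kind of test for the genes that follow, and for others among the 4980 called. The difference was 5.72 for SLC38A1, 4.93 for TOX2, 3.90 for SOGA2, 2.24 for PLEKHG1, 2.44 for ENC1, 1.72 for DNMBP and 0.93 for TRIB3. It was -4.41 for RP11-1055B8.7, -2.31 for GPR157, -2.31 for CR2, -1.44 for CD28, -2.05 for FGR, -2.83 for PKP1 and -0.53 for CD247.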

How the results depend on the processing

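The counts of 5267 higher and 5337 lower genes in the pooled comparison moved by less than 1.5 times under every alternative, with 4839 to 5232 higher and 4782 to 5349 lower when 1 library was left out. On the recovered reads, without ASO 1, edgeR called 5038 higher and 5237 lower and DESeq2 4461 and 4521. DESeq2 called 3135 higher and 3206 lower with guides and 2676 and 2798 with ASOs; leaving out a library gave 4661 to 4839 and 4766 to 4943 with guides, and 4471 to 4907 and 4681 to 5046 with ASOs. For the guide effect minus the ASO effect, no filter gave 891 higher and 989 lower, robust moderation 1 higher, edgeR 80 and 6, and leaving out 1 library 8 to 124 and 3 to 46 (124 and 46 without guide 1, 18 and 3 without guide 2, 75 and 8 without ASO 1, 8 and 7 without ASO 2). Against KOPTK1 the range was 1182 to 1952 higher and 1194 to 2028 lower, with 1182 and 1194 without the ASO control and 1230 lower without the guide control, and TMM scaling gave 2327 higher and 1221 lower. Against HPB-ALL it was 1758 to 2414 higher and 1475 to 2097 lower, with 1547 lower without guide 1 and 1475 without guide 2. The cause of these changes was not tested.

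Signs turned for uncalled genes: ZRANB3 without the guide control (-0.072; range without 1 library to 0.35, without the ASO control), CCNT2 without the ASO control (0.070; range from -0.095, without the guide control), without ASO 2 (0.027), with the replicate block and with guide 1 and ASO 1 alone (0.022 each), TMEM163 with edgeR (-0.043), with DESeq2 (-0.025), without the ASO control (-0.14; range to 0.43, without the guide control) and without ASO 1 (-0.023), and CCR9 with quantile scaling (-0.018). The numbers, which titles give to guides and oligonucleotides and descriptions to replicates, were not taken to pair the samples (r = 0.039 between deviations of guide 1 and ASO 1 over 13464 genes). With number as a block 5084 genes were called higher and 5101 lower. Guides without the guide control, ASOs without the ASO control and the HPB-ALL difference without the CUTLL1 guide control could not be fitted.

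With 1 control library for guides and 1 for ASOs, how controls vary within either method is not measured. Depth was similar across the 6 libraries, and genes with a mean under 20 were not tested.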
